A study of Mus musculus with 3 samples.

Results

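Cadherins are calcium-dependent adhesion proteins that join the membranes of neighbouring cells, and in the brain they help neurons sort, grow and hold their synapses. Classical cadherins bind catenins, which tie them to the actin cytoskeleton, whereas several other family members lack that link. PARP-1 is a nuclear enzyme that adds ADP-ribose chains to itself and to chromatin proteins. The data described here are the places in 8 cadherin genes where PARP-1 occupancy was listed as different after repeated cocaine in the nucleus accumbens, the region of the ventral striatum most closely tied to drug reward. The genes are Cdh4, Cdh6, Cdh12, Cdh13, Cdh17, Cdh18, Cdh23 and Cdh26. Every listed site assigned to one of these symbols was taken, which gave 11 of the 1727 sites in the table and 11 of the 770 sites in or near genes.

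PARP-1 ChIP-seq, in which antibody-bound chromatin fragments are sequenced, was done on accumbens punches of C57BL/6 mice. The cocaine group received 20 mg/kg intraperitoneally once per day for 7 days and the control group received saline on the same schedule; both were killed 30 minutes after the final injection. Each replicate pooled tissue from 10 mice, so a site's value is an average over mice and over all cell types of the punch, and more PARP-1 per cell cannot be told apart from a changed mix of cells. The labels describe biological triplicates and the design text sequencing replicates, but the table carries values of 2 cocaine and 3 saline replicates, which set n = 2 and n = 3 below. If they were repeat runs of 1 pool per group, every SD and limma p below would measure technical spread alone. Replicate numbers give only the order of values in the table. Age and sex are not stated in the labels, and a table of differential sites holds no marker level with which the labelled tissue could be checked.

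The values are normalized read counts, each library having been scaled by the authors with 1 factor. They are counts per site and were not scaled for site length, which ran from 1000 to 1600 bp at the cadherin sites. Whole reads could be recovered, with 1 read worth between 0.822 and 1.14 normalized reads, and by these factors the shallowest library had 72.3% of the depth of the deepest. The table holds only sites that the authors' test selected on these same libraries. The direction and size of each change below are therefore a description of listed sites, and the tests printed beside them are not independent evidence.

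After cocaine, PARP-1 signal rose at 10 of the 11 cadherin sites and fell at 1, the site in Cdh12. Of all listed sites in or near genes, 97.1% were higher after cocaine. At the 10 higher sites the fold over saline ran from 3.12 to 4.68. All 11 sites had replicates that did not overlap between the groups, which also held in the higher direction for 92.2% of all listed sites and in the lower direction for 6.72%. limma's test on log2(value + 1), adjusted by Benjamini-Hochberg over all 1727 sites, called 10 cadherin sites higher and 1 lower at an adjusted p under 0.05, where 90.2% of all listed sites were called higher and 5.27% lower. Leaving out cocaine replicate 1 left 6 of 11 cadherin sites called, and 46% of all listed sites. Leaving out cocaine replicate 2 left 0 of the 11 and 0% of all listed sites called by limma, with 7 of the 11 and 72.3% of all at an unadjusted p under 0.05. Each of those fits rested on a single cocaine library, which was assumed to vary like the others.

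**Figure D1:**
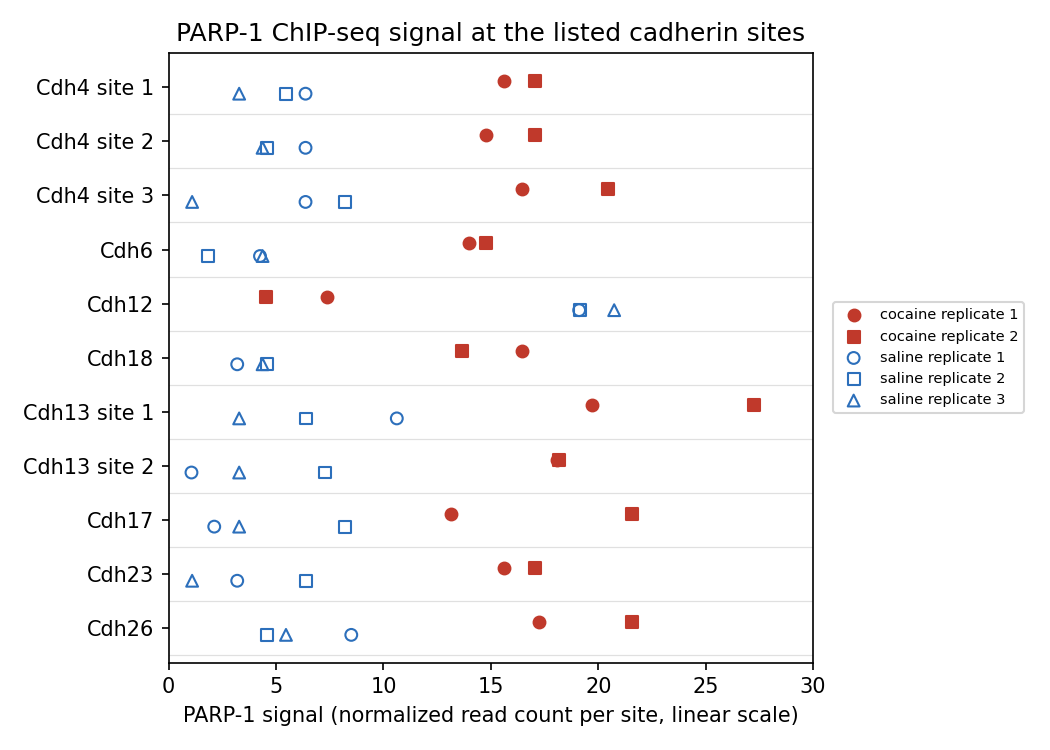
Normalized PARP-1 read count (horizontal axis, linear) in each replicate at each of the 11 cadherin sites; filled red symbols are the 2 cocaine replicates and open blue symbols the 3 saline replicates. At 10 sites both cocaine values lie to the right of all saline values, and at Cdh12 they lie to the left.

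Cdh4 encodes R-cadherin, a classical type I cadherin first known from the retina. It held the most sites of the 8 genes, with 3, all in its gene body on the plus strand of chromosome 2 (mm9, gene model NM_009867, 179177182 to 179634079). The first site (179337601 to 179338700, 161.0 kb from the transcription start) held 15.61 and 17.04 normalized reads after cocaine and 6.37, 5.47 and 3.28 after saline. The second (179363901 to 179364900, 187.2 kb from the start) held 14.79 and 17.04 after cocaine and 6.37, 4.56 and 4.37 after saline. These neighbouring sites lay 26.2 kb apart and had similar levels in both groups. The third (179620801 to 179622000) lay 257.0 kb further on, 12.7 kb before the end of the gene. It held 16.43 and 20.45 normalized reads after cocaine and 6.37, 8.21 and 1.09 after saline, so that a single read in saline replicate 3 stood against 6 and 9 in the other saline replicates. Mean levels rose from 5.04 ± 1.59 (SD, n = 3) to 16.3 ± 1.01 (SD, n = 2), from 5.10 ± 1.10 to 15.9 ± 1.59 and from 5.22 ± 3.70 to 18.4 ± 2.84. On limma's log2 scale the changes were 1.56 ± 0.31 (SE; adjusted p = 0.00646), 1.48 ± 0.26 (0.00537) and 1.89 ± 0.66 (0.0322) in that order. The last was the largest adjusted p of the 11 sites, and without saline replicate 3 the log2 fold change of the third Cdh4 site was 1.23 ± 0.26 (SE, adjusted p = 0.0106).

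Type II classical cadherins are expressed in restricted patterns among brain nuclei and neuron types. Of the 3 type II genes, Cdh6 and Cdh18 held a higher site and Cdh12 a lower one, and all 3 lie on chromosome 15. Cdh6, which encodes a cadherin of kidney and developing brain (minus strand, NM_007666, 12963954 to 13103393), had its site at 13074301 to 13075300, 28.6 kb into the gene. It held 13.97 and 14.77 normalized reads after cocaine and 4.25, 1.82 and 4.37 after saline. This was the lowest cocaine mean count of the higher sites, 14.4 ± 0.57, and the lowest saline mean count, 3.48 ± 1.44. The site, 1000 bp long, was also among the shortest, and the counts were not scaled for length. limma's log2 fold change was 1.84 ± 0.36 (SE), adjusted p = 0.00617.

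Cdh18, which encodes a cadherin found mainly in the brain (plus strand, NM_001081299, 22966217 to 23404172), had its site at 23213701 to 23214900, 248.1 kb from the start. It held 16.43 and 13.64 normalized reads after cocaine and 3.19, 4.56 and 4.37 after saline. It was the only one of the 10 higher sites at which cocaine replicate 1 exceeded cocaine replicate 2. Its saline values were the closest together of the higher sites, within 1.37 normalized reads. The mean rose from 4.04 ± 0.74 to 15.0 ± 1.97, with a limma log2 fold change of 1.68 ± 0.26 (SE), adjusted p = 0.00537.

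Cdh12, which encodes brain cadherin (plus strand, NM_001008420, 21041206 to 21519287), carried the single lower site, at 21329101 to 21330400 and 288.5 kb from the start. It held 7.39 and 4.55 normalized reads after cocaine, from 9 and 4 reads, and 19.11, 19.15 and 20.74 after saline. All 3 saline replicates were high and within 1.63 normalized reads of each other. The mean fell from 19.7 ± 0.93 to 5.97 ± 2.01, a level 3.29-fold lower after cocaine (limma log2 fold change -1.60 ± 0.28, SE, adjusted p = 0.00537). The site rested on more reads than any other cadherin site, 58 after saline and 13 after cocaine. Of the 22 listed lower sites in or near genes, 3 had a higher saline level and 19 a larger fold decrease. In the RefSeq annotation (GRCm38.p6, used for gene order only) Cdh12 and Cdh18 are separated by 1 protein-coding gene, Acot10. Their sites lay 1884.6 kb apart with no listed site between them, and no other listed site lay within 1000 kb of either.

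Cdh13 encodes T-cadherin, which is held in the membrane by a lipid anchor and has no cytoplasmic tail to bind catenins. It was the longest of the 8 genes, 1039.7 kb in the table's gene model (chromosome 8, plus strand, NM_019707, 120807654 to 121847347), and held 2 higher sites 148.1 kb apart. The first (121354701 to 121356300, 547.8 kb from the start) held 19.72 and 27.27 normalized reads after cocaine and 10.62, 6.38 and 3.28 after saline. It had the highest cocaine mean count of the cadherin sites, 23.5 ± 5.34, and the highest saline mean count of those that rose, 6.76 ± 3.68. It was also the longest cadherin site, 1600 bp, and the counts were not scaled for length, so this rank is not one of signal per base. The second (121503001 to 121504200, 695.9 kb from the start) held 18.07 and 18.18 after cocaine and 1.06, 7.29 and 3.28 after saline. It had the largest fold of the cadherin sites, 4.68, from 3.88 ± 3.16 to 18.1 ± 0.08. That fold rested on 12 reads over the 3 saline libraries, of which 8 came from saline replicate 2; without that replicate the fold was 8.35. On limma's log2 scale the first site changed by 1.76 ± 0.46 (SE, adjusted p = 0.0127) and the second by 2.19 ± 0.58 (SE, adjusted p = 0.0131).

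Of the remaining genes, Cdh23 encodes the large cadherin that forms the upper part of hair-cell tip links together with protocadherin-15. Its site (chromosome 10, 60057701 to 60058800, minus strand, NM_023370, gene 59766021 to 60159237) lay 101.0 kb from the start. It held 15.61 and 17.04 normalized reads after cocaine and 3.19, 6.38 and 1.09 after saline. The cocaine values equalled those of the first Cdh4 site, since both rested on 19 and 15 reads. The mean rose from 3.55 ± 2.66 to 16.3 ± 1.01, a fold of 4.59 (limma log2 fold change 2.11 ± 0.54, SE, adjusted p = 0.0116). Without saline replicate 2 the fold at Cdh23 was 7.63.

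Cdh17 encodes liver-intestine cadherin, an epithelial cadherin with a short cytoplasmic tail. Its site was the only one of the 11 that the table placed in a promoter rather than a gene body, with its centre at -702.5 bp relative to the start (chromosome 4, 11684101 to 11685100, plus strand, NM_019753, gene 11685303 to 11745051). It held 13.14 and 21.59 normalized reads after cocaine and 2.12, 8.21 and 3.28 after saline. The 2 cocaine replicates differed more here than at any other cadherin site (17.4 ± 5.98), and the gap between the lowest cocaine and the highest saline value, 4.93 normalized reads, was the smallest of the 11. The limma log2 fold change was 1.85 ± 0.52 (SE), adjusted p = 0.0154, and the fold of group means moved from 3.83 to 6.43 without saline replicate 2.

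Cdh26 encodes a cadherin described mostly in epithelia. Its gene lies on the same chromosome as Cdh4, with 1 protein-coding gene between them in the RefSeq annotation. Its site (chromosome 2, 178215701 to 178217000, plus strand, NM_198656, gene 178165311 to 178222070) lay 51.0 kb from the start and 5.7 kb before the end of the gene. It held 17.25 and 21.59 normalized reads after cocaine and 8.50, 4.56 and 5.46 after saline, and the mean rose from 6.17 ± 2.06 to 19.4 ± 3.07. The limma log2 fold change was 1.54 ± 0.32 (SE), adjusted p = 0.00676.

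**Figure D2:**
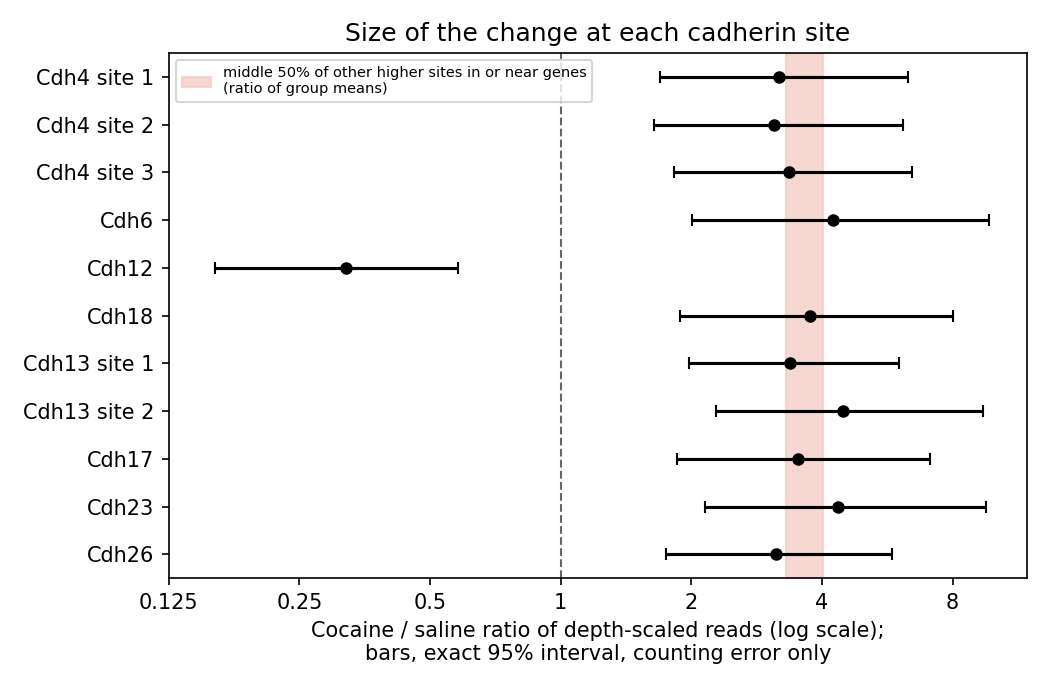
Cocaine to saline ratio of reads scaled by library depth (horizontal axis, log scale) at each cadherin site, with exact 95% intervals that cover counting error only. The band is the middle 50% of the fold at the other higher sites in or near genes with a mean count under 100. Points and band are unlike measures: points pool the reads of each group, whereas the band uses ratios of group means. The 10 higher sites have intervals that overlap one another, from 1.64 at the lowest bound to 9.69 at the highest, and Cdh12 lies below 1.

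The order of the 10 higher sites by fold, from the second Cdh4 site (3.12) through Cdh26, the first Cdh4 site, the first Cdh13 site, the third Cdh4 site, Cdh18, Cdh17, Cdh6 and Cdh23 to the second Cdh13 site (4.68), could not be resolved at this depth. In all 9 pairs of neighbours the exact 95% intervals of the read ratio overlapped, and the highest lower bound, 2.28, was below the lowest upper bound, 5.80. At each higher site 30 to 48 reads over the cocaine libraries stood against 10 to 20 over the saline libraries. The exact conditional test on these reads, which measures counting error only, called all 11 cadherin sites at an adjusted p under 0.05 over the 1727 sites, as it did 91.9% of listed sites in the higher and 6.31% in the lower direction.

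Set beside the other listed sites, the higher cadherin sites had a similar median fold and a slightly higher median count per site in both groups, which was not tested. The counts were not scaled for site length, and site lengths were not compared between the 2 sets. The median fold of the 10 higher cadherin sites was 3.63, against 3.62 at the 714 other higher sites in or near genes with a mean count under 100. Their median limma log2 fold change was 1.80 against 1.72. The median mean signal was 16.8 against 15.7 normalized reads after cocaine and 4.79 against 4.34 after saline. All higher sites with a mean count under 100, whether in or near genes or not, had a floor in the 2 cocaine libraries, with no value below 13.14 and 13.64 normalized reads. Cdh17 lay at the first of these floors and Cdh18 at the second, with Cdh6 just above both. Within 1.1 times the floor in at least 1 cocaine library lay 3 of the 10 higher cadherin sites and 54.1% of the 1567 higher sites with a mean count under 100. Cocaine replicate 2 exceeded cocaine replicate 1 at 9 of the 10, and at 58.8% of those 1567.

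**Figure D3:**
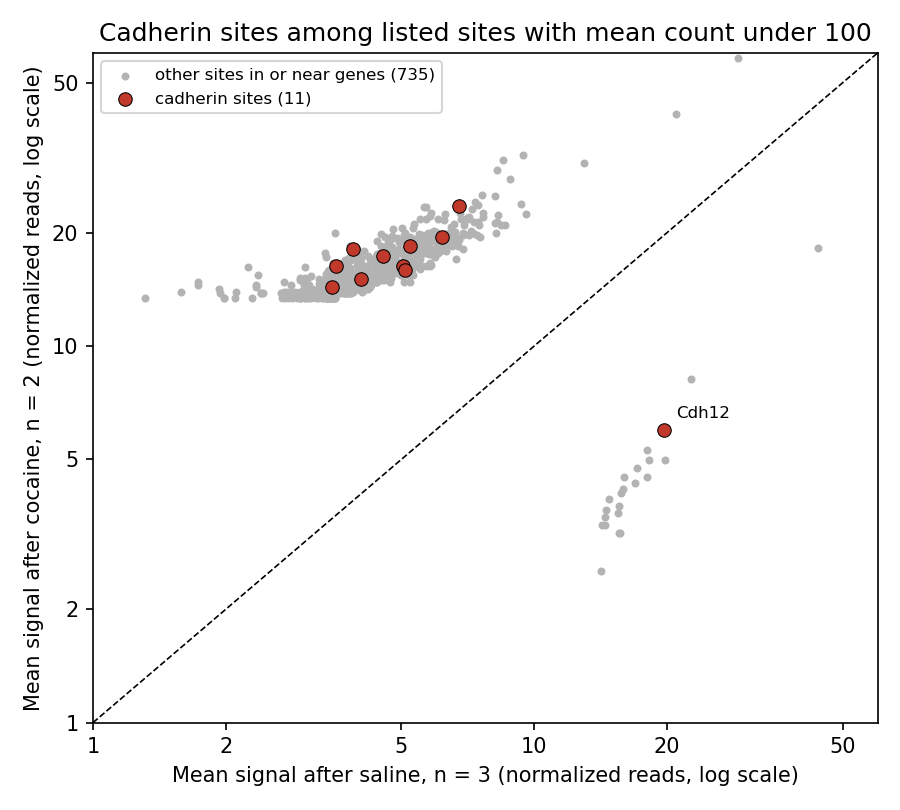
Mean normalized read count after cocaine (vertical, n = 2) against saline (horizontal, n = 3), both on log scales, for listed sites in or near genes with a mean count under 100; red points are the cadherin sites and the dashed line marks equal levels. The 10 higher cadherin sites lie inside the cloud of other higher sites, and Cdh12 lies among the 22 lower sites.

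The enrichment over background separated the cadherin sites more than the fold did. In the authors' deposited table the third Cdh4 site, near the end of the gene, had an enrichment of 9.00 after cocaine and 2.70 after saline. Cdh23 followed with 6.38 and 1.46, and the first Cdh13 site with 5.73 and 1.75. At the other end of the authors' deposited table, Cdh18 had 1.55 after cocaine and 0.43 after saline. The counts of these sites were much closer: the third Cdh4 site and Cdh18, both 1200 bp long, had means of 18.4 and 15.0 normalized reads after cocaine. The enrichment depends on the authors' background as well as on the signal, so its order is not an order of PARP-1 signal. The background was not examined here. Cdh12 went from 1.60 after saline to 0.47 after cocaine, so its saline value was the one above background. After saline the authors' deposited table gave an enrichment over 1 at 6 of the 10 higher cadherin sites, namely all 3 Cdh4 sites, the first Cdh13 site, Cdh23 and Cdh26, and at 34.5% of the 724 higher sites in or near genes with a mean count under 100. At the second Cdh13 site, Cdh6, Cdh17 and Cdh18 it was 0.71, 0.79, 0.66 and 0.43 in the authors' deposited table. The median enrichment after cocaine was 3.51 at the higher cadherin sites and 2.75 at the 714 others in the authors' deposited table. No spread is given with these values, which are 1 per group, and the difference was not tested.

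**Figure D4:**
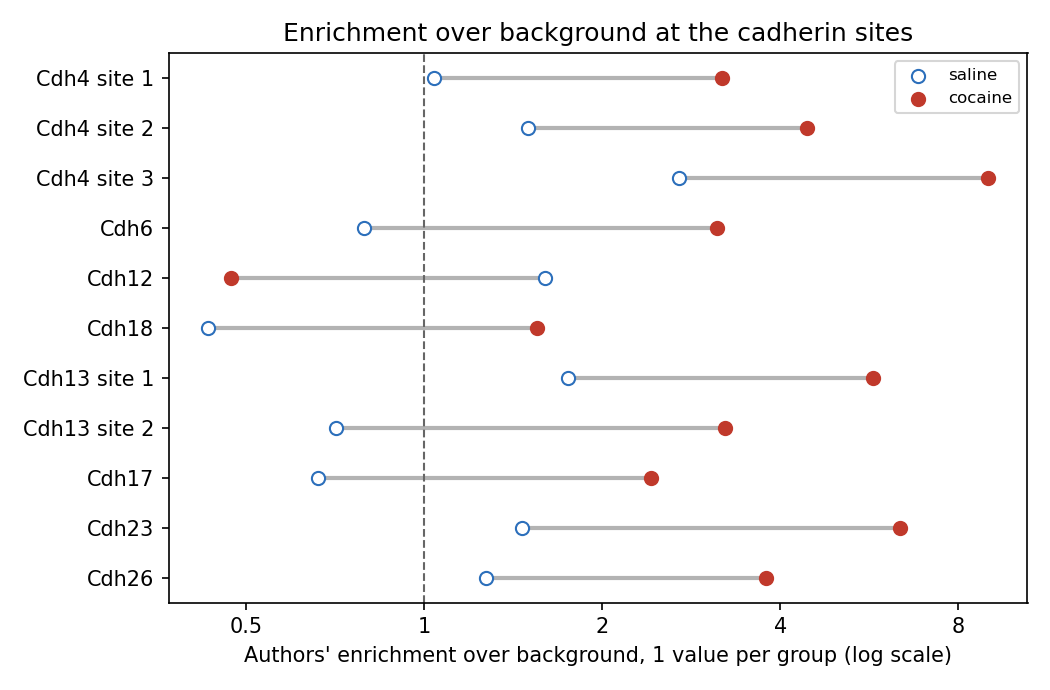
The authors' enrichment over background (horizontal axis, log scale) after saline (open) and cocaine (filled) at each cadherin site, 1 value per group; the dashed line marks the background level of 1. Values run from 0.43 (Cdh18, saline) to 9.00 (the third Cdh4 site, cocaine), and Cdh12 is the only site whose saline value is the higher.

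Most of the cadherin sites lay deep within long genes. Of the 11, 10 were in gene bodies and 1 in a promoter, where 89% of all sites in or near genes were in gene bodies. The centre of 8 of the 11 lay over 100 kb from the transcription start, against 26.2% of all sites in or near genes. The 8 genes had a median length of 415.6 kb and the other 680 genes with a site 73.8 kb. Long genes were not particular to these 8. The 9 genes of cadherin relatives and partners with a site, described below, had a median length of 812.9 kb. Sites of those 9 genes lay from 1.4 kb upstream of the start (Celsr2) to 735.3 kb into the gene (Pcdh15). Within the 8 genes the cadherin sites had no common place. In percent of gene length from the start they lay at 20.5 (Cdh6), 25.7 (Cdh23), 56.6 (Cdh18), 60.4 (Cdh12) and 89.9 (Cdh26). Those of Cdh4 lay at 35.2, 41.0 and 97.2 and those of Cdh13 at 52.7 and 66.9. The shortest genes, Cdh26 (56.8 kb) and Cdh17 (59.7 kb), held 1 site each, as did Cdh12 at 478.1 kb. Whether a site fell in an exon or an intron was not examined, because no mm9 exon annotation was used here.

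**Figure D5:**
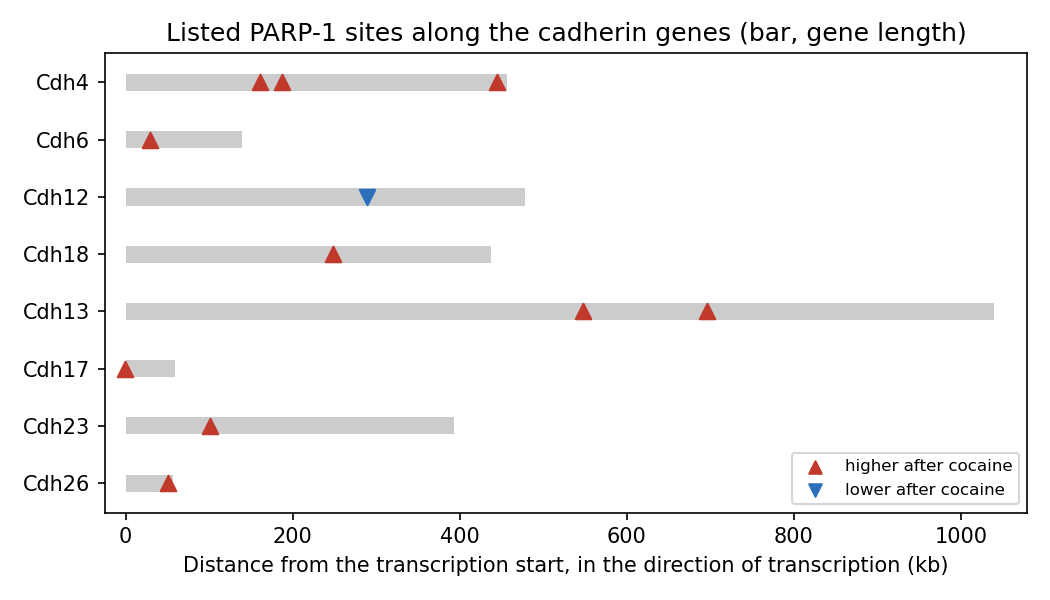
Position of each listed site along its gene, in kb from the transcription start in the direction of transcription; grey bars show the length of the table's gene model, red triangles higher sites and the blue triangle the lower site. Sites are spread from just upstream of the Cdh17 start to 695.9 kb into Cdh13, and the lone lower site lies 288.5 kb into Cdh12.

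Of 28 genes with a cadherin or cadherin-related symbol, these 8 (28.6%) had a listed site, and the other 20, among them the genes of E-cadherin and N-cadherin, had none. Of all protein-coding RefSeq symbols 3.07% had one. The 8 were chosen because they had a site, so the comparison describes the table and was not tested. It also made no allowance for gene length. At the median these 8 genes spanned 415.6 kb, while the other 680 genes with a site spanned 73.8 kb. Whether length bears on these percentages was not tested. A listed site was found in 9 of 151 other genes on the lists of cadherins, their relatives and partners. The 151 include the 20 cadherin genes without a site counted above, and all 9 are relatives or partners. These 9 genes held 11 sites, all higher after cocaine and all called by limma, with folds from 2.85 to 4.02 and a median of 3.11. Of all listed sites, limma called 90.2% higher, so these calls do not set the 11 sites apart.

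Among the relatives was Pcdh15, the partner of cadherin-23 in the tip link, whose site rose from 5.90 ± 2.59 to 17.9 ± 2.04 normalized reads (1.52 ± 0.37 on limma's log2 scale, SE, adjusted p = 0.01). The other sites of this kind were in the protocadherin gene Pcdh9 (from 6.11 ± 2.14 to 18.1 ± 0.08), the giant cadherin gene Fat3 (from 5.81 ± 3.87 to 18.1 ± 4.66) and, 1.4 kb upstream of its start, Celsr2, the gene of a cadherin that crosses the membrane several times (from 3.49 ± 1.84 to 13.4 ± 0.35). Among the catenins, which bind the classical cadherins, the alpha-catenin genes Ctnna2 and Ctnna3 held 1 and 2 sites. Ctnna2, the neuronal form, rose from 4.34 ± 1.14 to 15.2 ± 0.59. The Ctnna3 sites rose from 3.75 ± 2.75 to 15.1 ± 2.76 and from 4.11 ± 2.25 to 14.9 ± 1.37. The remaining 4 sites were in Ptprt, the gene of a receptor phosphatase that acts on cadherin complexes, with 2, and in the junction scaffold genes Magi1 and Magi2. By list, a site was held by 2 of 13 FAT, Dachsous, CELSR and calsyntenin genes, 2 of 70 protocadherins, 2 of 13 catenins and plakophilins and 3 of 18 partners, sheddases and phosphatases. It was held by 1 of 9 tip-link partners, Pcdh15, which is also a protocadherin, and by 0 of 9 desmosomal cadherins.

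By Euclidean distance of log2(value + 1) over the 5 libraries, the sites of other genes closest to the cadherin site with the most reads, that in Cdh12, were in 1700113H08Rik (0.47), Slc38a11 (0.52) and Vmn2r98 (0.62). Slc38a11, for instance, held 6.57 and 3.41 normalized reads after cocaine and 15.93, 18.24 and 25.11 after saline. With 5 libraries and few reads such likeness describes these values only.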

How the data were processed

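PARP-1 ChIP-seq of pooled accumbens tissue was analysed from the authors' table of differential sites. Per the file name, the table came from diffReps with a negative binomial test. The submitters' processing notes name the mm9 build and CASAVA 1.8.2; for the aligner, duplicate handling and window settings, the sources used here give nothing. The treatment columns were read as cocaine and the control columns as saline, from the name of the table and the design text. Each deposited count cell lists the normalized read counts of a group, 2 for cocaine and 3 for saline. The deposited averages are the mean signal per group. The deposited enrichment is a ratio to a background chosen by the authors. Fold changes were deposited by the authors in log2, beside their p-values. The input sample was not analysed here.

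In every library each of the 1727 values divided by a common step to within 0.1 of a whole read, which gave the reads. Values were tested as log2(value + 1) with limma 3.58.1 in R 4.3.3 over all sites with Benjamini-Hochberg adjustment. The added 1 shrinks each log2 difference, most at low counts. limma's change was still larger than the authors' log2 fold change at the third Cdh4 site (1.89 against 1.82), though at no other cadherin site. An exact two-sided binomial test compared each site's split of reads between the groups with the cocaine libraries' part of total depth, 41.5% (scipy 1.17.1). Its exact 95% intervals hold counting error alone: reads were amplified by PCR and carry no molecular identifiers. An exact permutation of 2 against 3 replicates cannot give a two-sided p below 0.1 and was not used. All sites of the 8 genes are named, with the genes of 7 lists of cadherin relatives and partners that had a site, and the 3 genes closest to the cadherin site with the most reads. The members, lists and tests were chosen with earlier results of these data known. Of the table's genes 683 of 688 matched a RefSeq symbol. No site sequence is shown because no mm9 sequence was used here.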

Additional observations from a re-analysis of the deposited data

How the results depend on the processing

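Cdh12 stayed lower and the other 10 sites higher in every alternative run: pseudocounts of 0.5 and 4, a variance trend in limma, reads without scaling factors, the fit without sites whose mean count reached 100, the exact conditional test, and each replicate left out in turn. All 11 sites passed in each of these except 2, those without a cocaine replicate. Leaving out 1 replicate gave 0 to 11 passing sites and a median log2 fold change of the higher sites from 1.56 to 1.93. Without cocaine replicate 1, 6 of the 11 cadherin sites and 794 of all 1727 sites passed, and the adjusted p ran from 0.0485 to 0.0953. Without cocaine replicate 2, 0 passed limma's test (adjusted p 0.0561 to 0.135), as did 0 of all 1727 sites. Without saline replicate 3 the third Cdh4 site moved from 1.89 to 1.23 on the log2 scale. Without saline replicate 2 the folds of Cdh17, Cdh23 and the second Cdh13 site moved from 3.83, 4.59 and 4.68 to 6.43, 7.63 and 8.35. With a pseudocount of 4 the median was 1.34, which follows from the larger constant. No paired analysis was possible because the table's replicates carry no numbers that the labels share between groups. Depth limits precision: the 10 to 20 saline reads at the 10 higher sites cannot rank their folds.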
